A study of Homo sapiens with 6 samples.

Results

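The short arm of human chromosome 9 (9p) ends in about 34 Mb of sequence that carries CDKN2A, MTAP, the type I interferon genes, JAK2 and the genes of the ligands PD-L1 and PD-L2. The genes described here are the rows of the deposited expression table that lie on chromosome 9, start below 34000000 and have a count sum of at least 60 over the 6 libraries. These were 135 of 268 rows in that stretch and of 35784 rows in all. Of the other rows there, 116 had a sum from 1 to 59 and 17 were at 0 in every library. The stretch was chosen by these same counts, on the lower level of its genes in the knockout libraries, so the fold changes between knockout and control below describe its members and no p-value is given for them. A transcript of protein-coding type was listed for 90 members.

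The libraries are total RNA of NCI-H1299, a human lung carcinoma line of the adenocarcinoma label that is known to lack p53. All cells were transduced with the LentiCRISPRv2 vector and selected with puromycin. The 3 control libraries come from cells labelled as the negative control of the knockout, and the 3 knockout libraries from cells with guides against IGF2BP3, an RNA-binding protein that recognises N6-methyladenosine. Per the labels' protocols, colonies grown from single cells were expanded for RNA. Which colony gave which library, and whether libraries of a group came from separate cultures, is not stated, so the spread between libraries may be technical and a group may be 1 clone.

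CDKN2A is read from a pair of start sites and gives unrelated proteins in different reading frames: p16INK4a, which holds the kinases CDK4 and CDK6 inactive and so keeps RB1 active, and ARF, which inhibits MDM2 and so stabilises p53. Its neighbour CDKN2B encodes the related inhibitor p15INK4b, the long noncoding RNA CDKN2B-AS1 (ANRIL) runs through the locus on the other strand, and MTAP encodes the enzyme that returns methylthioadenosine to methionine. Loss of this locus, often with MTAP and the interferon genes, is among the most frequent events in human tumours, lung carcinoma included.

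The promoters of the locus are shown because the table reports a single CDKN2A value for both start sites and because CDKN2B-AS1 starts between them on the opposite strand. Those of B4GALT1 and AQP3 are shown as the promoters of abundant members with large falls. Each run is the 250 bases before a RefSeq start (GRCh38.p14), 5′ to 3′ on the gene's strand, and capitals mark the GC box in either orientation (GGGCGG or CCGCCC), a letter match and not a measured binding site. The regions, in the order of the sequences, are chr9:21995325-21995574 (minus strand), chr9:21974858-21975107 (minus), chr9:21994541-21994790 (plus), chr9:21802386-21802635 (plus), chr9:33167337-33167586 (minus) and chr9:33447594-33447843 (minus).
CDKN2A, upstream start (the ARF-type start): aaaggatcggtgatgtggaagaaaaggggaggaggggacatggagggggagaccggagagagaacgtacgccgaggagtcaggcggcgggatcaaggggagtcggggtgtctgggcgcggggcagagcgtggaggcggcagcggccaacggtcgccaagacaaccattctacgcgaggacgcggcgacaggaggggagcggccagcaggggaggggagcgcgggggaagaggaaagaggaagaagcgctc
CDKN2A, downstream start: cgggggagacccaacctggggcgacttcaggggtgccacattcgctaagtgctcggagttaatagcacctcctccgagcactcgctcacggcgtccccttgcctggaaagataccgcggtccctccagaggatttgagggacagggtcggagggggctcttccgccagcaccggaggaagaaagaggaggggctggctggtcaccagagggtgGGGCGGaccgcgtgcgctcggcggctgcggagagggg
CDKN2B-AS1: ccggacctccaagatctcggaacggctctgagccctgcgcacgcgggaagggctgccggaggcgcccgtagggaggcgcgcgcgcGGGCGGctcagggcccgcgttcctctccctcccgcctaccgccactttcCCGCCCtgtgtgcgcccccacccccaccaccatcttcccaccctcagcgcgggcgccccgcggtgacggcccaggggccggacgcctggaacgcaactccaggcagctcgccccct
MTAP: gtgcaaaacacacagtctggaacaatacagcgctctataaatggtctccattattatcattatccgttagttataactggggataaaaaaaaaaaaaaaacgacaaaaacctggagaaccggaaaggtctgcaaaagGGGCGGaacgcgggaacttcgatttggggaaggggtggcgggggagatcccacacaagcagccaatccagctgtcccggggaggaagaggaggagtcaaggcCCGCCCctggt
B4GALT1: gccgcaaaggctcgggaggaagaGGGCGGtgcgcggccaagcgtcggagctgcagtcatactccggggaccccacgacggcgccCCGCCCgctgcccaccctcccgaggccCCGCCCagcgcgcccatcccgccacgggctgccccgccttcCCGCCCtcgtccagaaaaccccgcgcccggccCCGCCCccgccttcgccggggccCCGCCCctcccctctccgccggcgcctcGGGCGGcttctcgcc
AQP3: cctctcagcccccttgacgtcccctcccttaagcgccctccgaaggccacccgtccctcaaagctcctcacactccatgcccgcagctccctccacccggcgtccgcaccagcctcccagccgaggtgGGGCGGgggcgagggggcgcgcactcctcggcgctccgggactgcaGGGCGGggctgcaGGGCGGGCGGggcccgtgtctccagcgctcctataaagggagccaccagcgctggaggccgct

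The upstream CDKN2A window held 0 GC boxes and the downstream window 1, against 7 for B4GALT1 and 4 for AQP3. RefSeq start windows were found for 91 members, with 141 windows. The GC box was present in 55.3% of them, against 42.6% of all 35116 windows of the same length. The median ratio of observed to expected CpG was 0.765 for the members and 0.558 for all windows. TATAAA in either orientation was in 9.93% and 10.7%, and CCAAT in 27.0% and 32.0%. These sets are unlike: members had to reach a count sum of 60, and 80 of the 91 with windows had a coding transcript. The set of all windows was not limited by level or transcript type. The part of level and type in these differences was not tested, so they are not shown to be a feature of the stretch. Among members with a coding transcript, the GC box was in 56.5% of the windows of those called lower and in 57.6% of the windows of those that did not pass.

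Totals ran from 67674223 to 80810319 counts per library, so that 3 counts, taken as the floor of detection, stood for 0.0389 to 0.0435 CPM (counts scaled by the library total, adjusted by TMM). Floors cover counting error only, since reads without molecular identifiers are not independent molecules. IGF2BP3 itself was at 58.8, 51.6 and 54.1 CPM in the controls and 39.9, 25 and 22.6 CPM in the knockouts, so its RNA was lower in every knockout library, and knockout 1 kept the most. No pair of libraries of a group agreed within sampling noise: chi-square per degree of freedom was 14.6 between knockouts 2 and 3, and 96.6 and 106 between knockout 1 and these. Among controls it was 12.1 between controls 1 and 2, and 45.2 and 44.5 between control 3 and these. Knockout 1 and, to a lesser degree, control 3 therefore stand apart in their groups. The epithelial keratins KRT8 and KRT18 were high in all libraries, at 4804, 4869.6 and 4581 CPM for KRT8 in the controls and 2726, 2258 and 2296 CPM in the knockouts. EPCAM was at 4.76 to 4.84 and at 3.36 to 3.93 CPM. The leukocyte gene PTPRC was at 0 except for 0.297 CPM in knockout 2, the endothelial gene PECAM1 fell from 0.318, 0.319 and 0.536 CPM in the controls to 0.013, 0 and 0.0518 CPM in the knockouts (log2 fold change -4.05, edgeR adjusted p 0.021), and the fibroblast collagen COL1A1 was at 6.02 to 7.32 CPM in the controls and 8.14 to 11.3 CPM in the knockouts. The part of these genes in the results was not tested.

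The genes of distal 9p were on the whole lower in the knockout libraries. Values of single libraries are given below in the order of their numbers, controls before knockouts. Of 133 members that passed the filter on low counts, 108 had a log2 fold change below 0 and 25 above 0. The median log2 fold change was -0.44 (quartiles -0.77 and -0.14), or 73.9% of the control level, against 0.01 over all 20134 tested genes. In these bulk libraries, fewer cells with normal levels and less RNA per cell cannot be told apart. At an adjusted p of at most 0.05 in edgeR's quasi-likelihood test, 52 members were called lower and 1, TUSC1, was called higher, while 80 did not pass. Over all tested genes, 11.5% were called lower and 8.21% higher. The filter let a gene pass on the level of either group, so these counts are no support for a fall. The members that were not tested were the pseudogene CDCA4P1 and TAF1L, the testis paralogue of a TFIID subunit, with counts of 4, 34 and 16 in the controls and 0, 0 and 8 in the knockouts.

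Taken library by library, the median over the members lay lower in each knockout than in any control. The stretch was chosen on this lower level, so the order of the medians is a description. The median log2 ratio of a library to the mean of the controls was -0.50 (70.5%) in knockout 1, -0.37 (77.6%) in knockout 2 and -0.40 (75.7%) in knockout 3. Members below 0 numbered 105, 97 and 107 of 133. In the controls, each set against the mean of the other controls, the medians were -0.03, -0.03 and 0.06, with 71, 69 and 61 members below 0. The median of all other tested genes lay between 0.00 and 0.02 in every library. The mean of the knockout medians was -0.42 ± 0.07 (SD, n = 3 libraries). All knockout medians lay below all control medians.

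**Figure D1:**
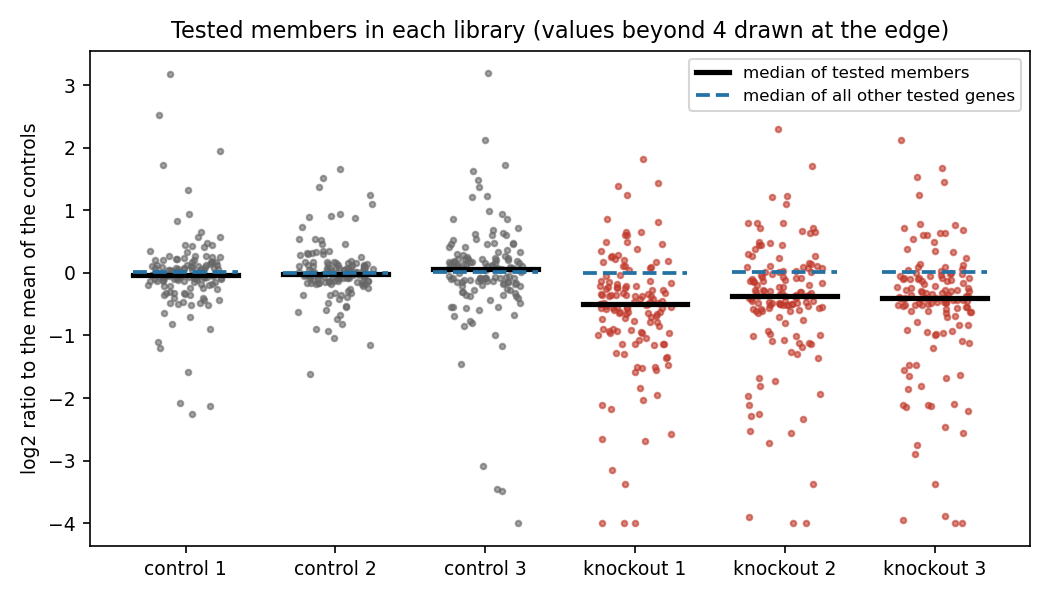
Log2 ratio of each of the 133 tested members to the mean of the controls, by library (a control against the other controls). Points are genes, black bars their median and dashed bars the median of all other tested genes. The black bars sit at -0.50, -0.37 and -0.40 in the knockouts and between -0.03 and 0.06 in the controls.

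In 70 members every knockout library lay below every control library, and in 4, among them ACER2, SCARNA8 and TUSC1, every knockout library lay above. The same counts over all tested genes were 21.5% and 19.7%. Among the 80 members that did not pass, 18 had groups that do not overlap with the knockouts lower, 3 with the knockouts higher, and 59 had groups that overlap.

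Most well-measured members had log2 fold changes around the median of the members. Of 56 members with a mean count of at least 1000, 36 had a log2 fold change between -0.7 and -0.2, and 4 were above 0: PUM3, GLDC, HAUS6 and ANXA2P2. With a mean count from 1000 to 10000, 35 of 50 members were called lower (15.5% of all tested genes of that level) and the median was -0.47. The quartiles were -0.58 and -0.29, against -0.22 and 0.20 for all tested genes of that level. At 10000 or more, 2 of 6 members were called lower (14.4% of all) and the median was -0.22. From 100 to 1000, 10 of 30 were called lower (13.6% of all), at a median of -0.46. From 10 to 100, 5 of 47 were called lower (4.25% of all), at a median of -0.29. The share called was thus highest from 1000 to 10000, and the medians were nearest to 0 in the highest and the lowest class. Members with a coding transcript had a median of -0.49 (71.2% of control) and 49 of 89 were called lower. Those without had a median of -0.18 (88.2% of control) and 3 of 44 were called lower: the long noncoding RNAs MIR31HG, C9orf92 and UBE2R2-AS1. Over all tested genes, 14.4% of those with and 4.39% of those without a coding transcript were called lower, with medians of 0.00 and 0.02. The median of the members' mean counts was 2129.7 with and 32.8 without a coding transcript, and the part of level in the smaller shift of the latter was not tested. Whether counting used the strand is not given in the sources used here, and 70 members overlap a row on the opposite strand, so their reads cannot be assigned with certainty.

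Position along the arm was read in windows. Of all tested genes, 11.5% were called lower and 8.21% higher, and these shares stand beside the counts. The median log2 fold change was -0.18 in the first 2 Mb (7 tested members, 2 called lower), -0.44 from 2 to 10 Mb (36 members, 15 lower), -0.36 from 10 to 20 Mb (30 members, 11 lower), -0.48 from 20 to 30 Mb (24 members, 10 lower) and -0.50 from 30 to 34 Mb (36 members, 14 lower). Beyond the limit it was -0.30 from 34 to 36 Mb (51 genes, 16 lower), -0.31 from 36 to 39 Mb (31 genes, 6 lower) and -0.05 from 39 to 43 Mb (21 genes, 1 lower). The lower levels thus did not end at 34 Mb. Over 34 to 43 Mb as a whole, 23 of 103 genes were called lower and 1 higher, at a median of -0.25. On the long arm, 67 of 566 genes (11.8%) were called lower and 43 (7.60%) higher, near the shares of all tested genes, at a median of 0.03. The difference between these stretches was not tested.

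**Figure D2:**
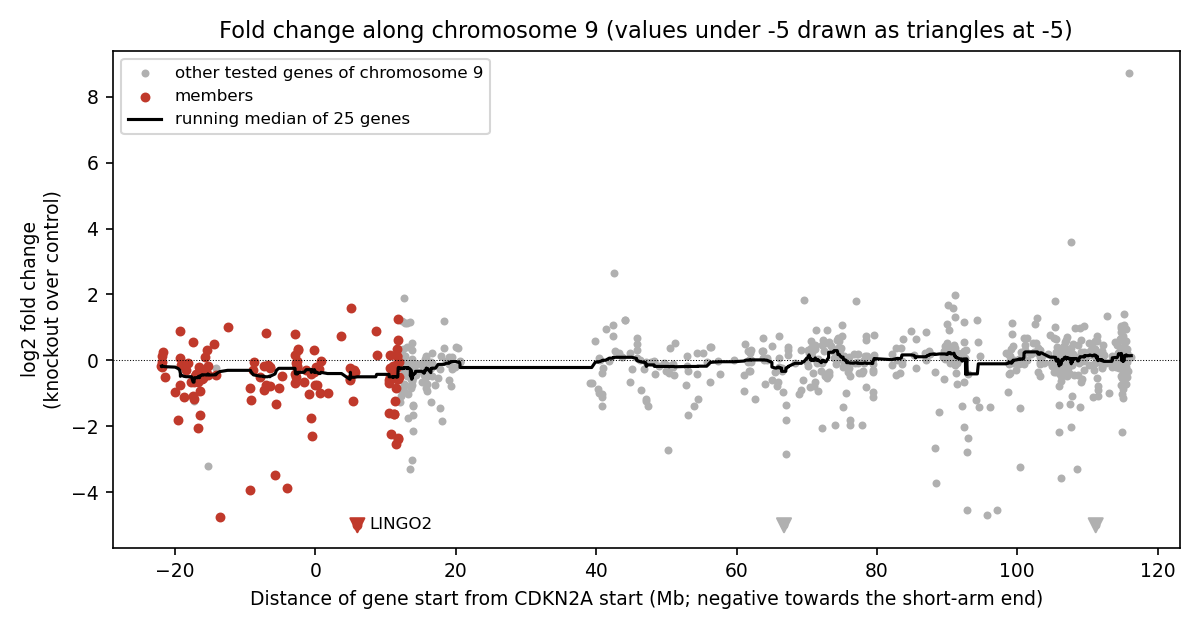
Log2 fold change of tested genes along chromosome 9, by the distance of the gene start from the start of CDKN2A in Mb; red points are members, grey points other genes of the chromosome, and the line is the running median over 25 genes. The line lies below 0 over most of the short arm and near 0 over the long arm, where the median is 0.03.

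The limit was not marked by a change of direction. Just inside lie UBE2R2-AS1 with a log2 fold change of -2.36, UBE2R2 with -0.50 and UBAP2 with -0.06. Just outside lie ENSG00000228352 with -1.27, DCAF12 with -0.88 and UBAP1 with -1.06. The genes just inside the limit on counts were LAGE3P1, C9orf92 and TAF1L with sums of 60, 61 and 62, and those just outside were FTH1P12, ENSG00000273056 and CDC37L1-DT with 54, 56 and 59. Both arms of chromosome 16 gave medians of the same size as distal 9p. They were -0.47 over 528 genes of the short arm and -0.51 over 408 genes of the long arm. Of these genes, 210 and 164 (39.8% and 40.2%) were called lower, against 11.5% of all tested genes. Chromosome 17 from 60 Mb went the other way, with a median of 0.39. There 117 of 348 genes (33.6%) were called higher, against 8.21% of all tested genes. A shared shift over a long stretch of a chromosome was thus seen on chromosomes 16 and 17 too, in the same libraries.

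CDKN2A had few counts in every library. Its counts were 43, 9 and 0 in the controls and 3, 14 and 14 in the knockouts, or 0.57, 0.13 and 0 CPM against 0.0391, 0.198 and 0.181 CPM. Only control 1 stood clearly above the other libraries, control 3 had no count, and the groups overlap. The fitted log2 fold change was -0.75 (SE 1.26) and did not pass, and it was 1.07 without control 1, 0.70 under quantile normalization and 0.22 with the replicate number as a block. No direction can be read for CDKN2A from counts this few that differ this much between controls. Its reads may in part be those of CDKN2B-AS1, which overlaps it on the opposite strand. CDKN2B, with counts of 0, 8 and 0 in the controls and 4, 4 and 4 in the knockouts, was under the limit of 60 and is no member.

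The genes on either side of CDKN2A were measured well. MTAP was at 11.5, 10.7 and 8.64 CPM in the controls and 7.33, 7.59 and 9.03 CPM in the knockouts, with a log2 fold change of -0.36 (SE 0.16). Knockouts 1 and 2 lay below all controls, but knockout 3 lay above control 3, and MTAP did not pass. CDKN2B-AS1 was at 8.68, 8.16 and 4.91 CPM against 6.76, 6.73 and 5.59 CPM, a log2 fold change of -0.19 (SE 0.23) that did not pass. It was -0.41 without control 3, but -0.04 without control 1 and -0.09 without control 2 or under quantile normalization. Control 3 was the lowest control for both genes. DMRTA1, a doublesex-type transcription factor gene, was at 2.55, 1.8 and 2.52 CPM against 1.17, 2.41 and 2.13 CPM, also with groups that overlap.

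Farther from CDKN2A, genes were called. KLHL9, a substrate adaptor of a CUL3 ubiquitin ligase that acts in mitosis, was at 95.9, 103 and 91.5 CPM in the controls and 65.2, 77.2 and 77.6 CPM in the knockouts (75.8% of control). FOCAD, the focadhesin gene, was at 87.5, 86.8 and 76.7 CPM against 71.1, 66.8 and 68.7 CPM (82.3%). Both were called lower, with every knockout below every control. Their calls were lost when some single libraries were left out. MIR31HG, the host transcript of the microRNA miR-31, was called lower and dropped further, from 17.8, 18.3 and 20.4 CPM to 8.9, 3.92 and 4.03 CPM, a log2 fold change of -1.75 (SE 0.31). Knockouts 2 and 3 were at less than the level of knockout 1. In all, 3 of the 7 tested genes of the locus list were called lower and 4 did not pass, with a median of -0.36. In the fit of all libraries 7 of 7 were below 0, but the sign of CDKN2A changed under other settings. The list leaves out the tested members HACD4, IFNE, TUBB8P1 and ENSG00000236921 of the same interval. HACD4, IFNE and ENSG00000236921 had log2 ratios to the controls below 0 in every knockout. TUBB8P1, between MTAP and CDKN2A, had ratios of -0.63, 0.79 and 0.77 in the knockouts. Of all tested members, 39.1% were called lower and 81.2% were below 0. Over all tested genes these shares were 11.5% and 49.5%.

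The interferon genes between FOCAD and MTAP were nearly silent. Of 17 listed genes of the cluster, 9 were in the table and 1, IFNE, the epithelial type I interferon, was a member. IFNE was at 4.39, 4.16 and 5.25 CPM in the controls and 1.76, 0.751 and 0.272 CPM in the knockouts, a log2 fold change of -2.31 (SE 0.57), and was called lower, though not without some single libraries. The other rows of the cluster had count sums below 60, for example 20 for IFNB1 and 36 for IFNA1, whose counts were 11, 8 and 17 in the controls and 0, 0 and 0 in the knockouts. IFNE lies within MIR31HG on the same strand, and IFNA1 and IFNA8 lie within it on the opposite strand, so the counts of all of these may belong in part to MIR31HG, which was called lower too.

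**Figure D3:**
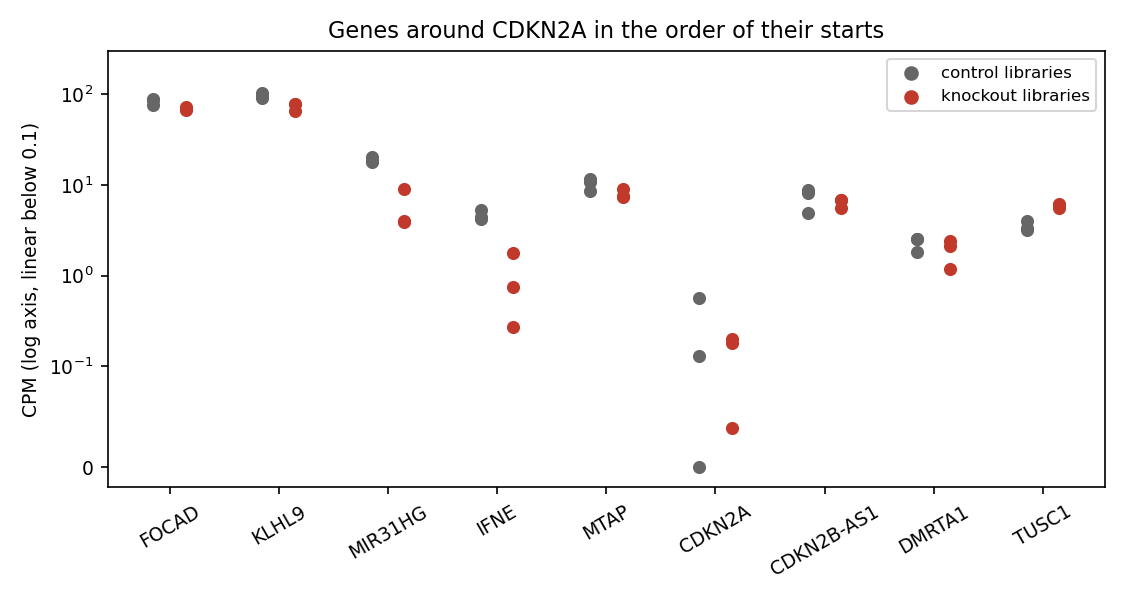
CPM of the genes around CDKN2A in the 3 control (grey) and 3 knockout (red) libraries, in the order of their starts, on a log axis that is linear below 0.1. CDKN2A is the lowest and has overlapping groups, as do MTAP, CDKN2B-AS1 and DMRTA1, while the groups of FOCAD, KLHL9, MIR31HG, IFNE and TUSC1 do not overlap.

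The stretch around JAK2 holds an immune signalling kinase and both ligands of the checkpoint receptor PD-1. JAK2, the kinase of many cytokine receptors, was at 13.1, 15.9 and 21 CPM in the controls and 11.5, 12.7 and 13.4 CPM in the knockouts (75.1% of control), with knockout 3 above control 1, and did not pass. CD274, which encodes PD-L1, was at 1.57, 1.9 and 2.48 CPM against 1.29, 2.18 and 1.48 CPM, with groups that overlap. PDCD1LG2, which encodes PD-L2, was at 0.464, 0.261 and 0.493 CPM against 0.013, 0.212 and 0.156 CPM, with every knockout lower but levels near the floor, and did not pass. None of the 3 genes was called.

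Most of their neighbours were called lower. INSL4, an insulin-like peptide known from the placenta, was among the strongest falls of distal 9p, with 50.9, 51.7 and 48.4 CPM in the controls and 11.7, 13.2 and 11.4 CPM in the knockouts, a log2 fold change of -2.06 (SE 0.09). The related relaxin gene RLN2, at 0.464, 0.507 and 0.522 CPM against 0.287, 0.51 and 0.143 CPM, overlapped between groups. AK3, a mitochondrial nucleotide kinase, went from 104, 106 and 132 to 63.2, 79.7 and 73.5 CPM (63.3%). RCL1, which acts in the processing of ribosomal RNA, was at 71.5% of control, RIC1, part of the exchange factor for RAB6, at 72.8%, ERMP1, a peptidase of the endoplasmic reticulum, at 67.7%, CDC37L1, a relative of the HSP90 cochaperone CDC37, at 64.7%, and SPATA6L at 47.1%. Of 13 tested genes of the list, 7 were called lower, 0 higher and 6 did not pass. The median was -0.56 and all 13 were below 0. Beside the counts of this list and of the lists of roles below stand the shares of all tested members. Of these, 39.1% were called lower and 81.2% were below 0, at a median of -0.44. With a coding transcript the shares were 55.1% and 88.8%, at a median of -0.49. Over all tested genes, 11.5% were called lower. No list was compared with these shares by a test.

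Genes of chromatin and transcription were mostly lower, like the members as a whole. SMARCA2, which encodes the SWI/SNF ATPase BRM, was at 142, 142 and 127 CPM in the controls and 71.9, 68.2 and 72 CPM in the knockouts, a log2 fold change of -0.95 (SE 0.08). The knockout libraries differed little among themselves in SMARCA2, but the spread between libraries may be technical. RFX3, a regulator of genes of the cilium, was at 12.5, 11.5 and 13.6 CPM against 5.67, 5.51 and 6.29 CPM (46.5%). BNC2, a zinc finger factor, was at 22.9, 20.3 and 19.6 CPM against 13.5, 5.96 and 5.77 CPM, with knockout 1 the highest of the knockouts. MLLT3, the AF9 subunit of the super elongation complex, was lowest in knockout 1, at 26.6, 36.9 and 38.4 CPM in the knockouts against 51.5, 51.8 and 56.3 CPM.

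Smaller falls were called for NFIB, a nuclear factor I protein (70.9% of control), KDM4C, a demethylase of histone H3 lysine 9 (73.4%), TOPORS, a ubiquitin and SUMO ligase (67.2%), NFX1 (70.8%) and UHRF2, a relative of the DNA methylation factor UHRF1 (79%). PSIP1, the chromatin reader LEDGF, and SNAPC3, a subunit of the activator of small nuclear RNA genes, were at 84.6% and 86.3%. In both, every knockout lay below every control, but neither passed, and they overlap each other on opposite strands. GLIS3, at 89.1, 92.9 and 121 CPM against 76.9, 102 and 109.9 CPM, overlapped between groups. Of 13 tested genes of the list, 9 were called lower, 1 higher and 3 did not pass, and the median was -0.50.

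TUSC1, a short gene named as a candidate tumour suppressor, was the exception. It was at 3.18, 3.33 and 3.94 CPM in the controls and 5.5, 6.08 and 5.97 CPM in the knockouts, a log2 fold change of 0.75 (SE 0.17). Every knockout lay above every control. TUSC1 lies between ELAVL2, at 50.4% of control, and CAAP1, which was called lower at 66%. The call was lost without control 1, control 2, knockout 2 or knockout 3, each of which left 0 members called higher, and was kept without control 3 or knockout 1. Without knockout 1, GLDC was called higher as well.

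Genes of RNA processing and translation included the most abundant member. This was RPS6, a protein of the small ribosomal subunit, at a mean of 460.2 FPKM (counts scaled by gene length and depth) over all libraries. It was at 1345, 1342 and 1508 CPM in the controls and 1282, 1223 and 1127 CPM in the knockouts (86.6%). The groups of RPS6 do not overlap, yet it did not pass. PUM3, a nucleolar Pumilio relative, was at 73, 76 and 67.5 CPM against 78, 77.7 and 71.6 CPM and NOL6, a nucleolar factor, at 155, 162 and 137 CPM against 170.1, 118 and 124 CPM. Both overlapped between groups and were close to the control level, and NOL6 was highest in knockout 1. SMU1, a splicing factor (77.8% of control), APTX, which repairs DNA ends (74.5%), and RCL1 were called lower. DDX58, the viral RNA sensor RIG-I, was at 14, 13 and 10.9 CPM against 5.65, 8.94 and 9.15 CPM, with every knockout lower and the lowest value in knockout 1, and did not pass. C9orf72, known for its repeat expansion in motor neuron disease, was at 18.9, 16.3 and 18.2 CPM against 10.9, 14.4 and 16.5 CPM, with groups that overlap by a single library. Of 11 tested genes, 3 were called lower and 8 did not pass, with a median of -0.35.

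In the list of centrosome, cilium and division, HAUS6 and TTC39B did not pass and the others were called lower. BNC2 and CDC37L1, described above, are counted in this list as well as in others. They and DENND4C are described here by other roles. A role in centrosome, cilium or division was not shown here for them or for TTC39B, and all count in the list's figures. IFT74, a subunit of the intraflagellar transport complex, was at 38.5, 36.9 and 35.9 CPM in the controls and 22.5, 24.8 and 27.6 CPM in the knockouts (67.3%). CNTLN, the centriolar protein centlein, was at 35.6, 34.6 and 32.1 CPM against 24.2, 25 and 24.3 CPM (71.8%). MOB3B, a protein of the MOB family, was at 10.3, 9.65 and 9.45 CPM against 5, 3.98 and 3.5 CPM (42.5%), and DENND4C, an exchange factor of RAB10, was at 70.3%. CCDC171, a coiled-coil gene, was called lower at 4.26, 4.61 and 5.57 CPM against 3.43, 2.49 and 2.51 CPM. TTC39B, at 5.64, 4.86 and 10.1 CPM against 5.13, 6.6 and 6.75 CPM, overlapped between groups, and its sign changed without control 3. HAUS6, a subunit of the augmin complex that seeds microtubules in the spindle, was at 112, 114 and 93.3 CPM against 135, 112 and 113 CPM. Knockout 1 was the highest and control 3 the lowest, the other libraries lay together between them, and HAUS6 did not pass. Of 9 tested genes, 7 were called lower and 2 did not pass, with a median of -0.57.

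B4GALT1 led the genes of metabolism. It encodes the Golgi galactosyltransferase that extends N-glycans and is also part of lactose synthase. It was at 699, 698 and 794 CPM in the controls and 263, 221 and 232 CPM in the knockouts, a log2 fold change of -1.61 (SE 0.10). Per length it was at 135, 135 and 152 FPKM in the controls and 48.7, 44.7 and 46.8 FPKM in the knockouts, among the 6 highest of distal 9p in FPKM over all libraries. Its antisense transcript B4GALT1-AS1 was at 0.517, 0.464 and 0.913 CPM against 0.0782, 0.425 and 0.117 CPM and did not pass. PLPP6, a lipid phosphatase, was at 44.1% and HACD4, a dehydratase of fatty acid elongation, at 49.5% of control. ACO1, which is both cytosolic aconitase and iron regulatory protein, was at 127, 136 and 142 CPM against 86.5, 91.1 and 93.6 CPM (66.9%). NDUFB6, a subunit of respiratory complex I, was at 70.1%, DMAC1, an assembly factor of that complex that is on no list, at 73.9%, and PLIN2, which coats lipid droplets, at 75.2%.

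A pair of metabolic genes went against the rest without passing. GLDC, the decarboxylase of the glycine cleavage system, was at 19.9, 22 and 17 CPM in the controls and 20.2, 25.4 and 27.4 CPM in the knockouts. ACER2, a Golgi ceramidase, was at 1.74, 1.67 and 2.04 CPM against 2.08, 2.48 and 2.28 CPM, with every knockout above every control. PLGRKT, a plasminogen receptor, was at 87.7% of control with overlapping groups. Of 13 tested genes, 9 were called lower, 0 higher and 4 did not pass, with a median of -0.51.

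Genes of protein quality, ubiquitin and trafficking were all below 0. BAG1, a cochaperone of HSP70, fell most, from 85.5, 89.6 and 98.5 CPM in the controls to 49.1, 35.4 and 32.9 CPM in the knockouts, a log2 fold change of -1.22 (SE 0.15). RRAGA, a Rag GTPase that brings mTORC1 to the lysosome, was at 98.5, 99.3 and 109 CPM against 59, 73 and 59.1 CPM (62.2%). CHMP5, an ESCRT-III protein, was at 104, 105 and 117 CPM against 70.2, 84.4 and 77.7 CPM (71.2%). UBE2R2, a ubiquitin-conjugating enzyme of SCF ligases, was at 70.9%, CAAP1 at 66% and the importin relative RANBP6 at 75.3%.

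Others of this group stayed nearer to the control level. DNAJA1, an HSP40 cochaperone, was at 401, 405 and 313 CPM in the controls and 431, 286 and 274 CPM in the knockouts. Knockout 1 was the highest of all libraries for DNAJA1 and knockout 3 the lowest. PLAA, which binds ubiquitin and p97, was at 84.6% and the palmitoyltransferase ZDHHC21 at 89.4%, both with every knockout below every control and neither called. UBAP2, at 119.7, 119.8 and 93.3 CPM against 124, 91.3 and 103 CPM, overlapped between groups. Of 14 tested genes, 9 were called lower and 5 did not pass, with a median of -0.40.

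**Figure D4:**
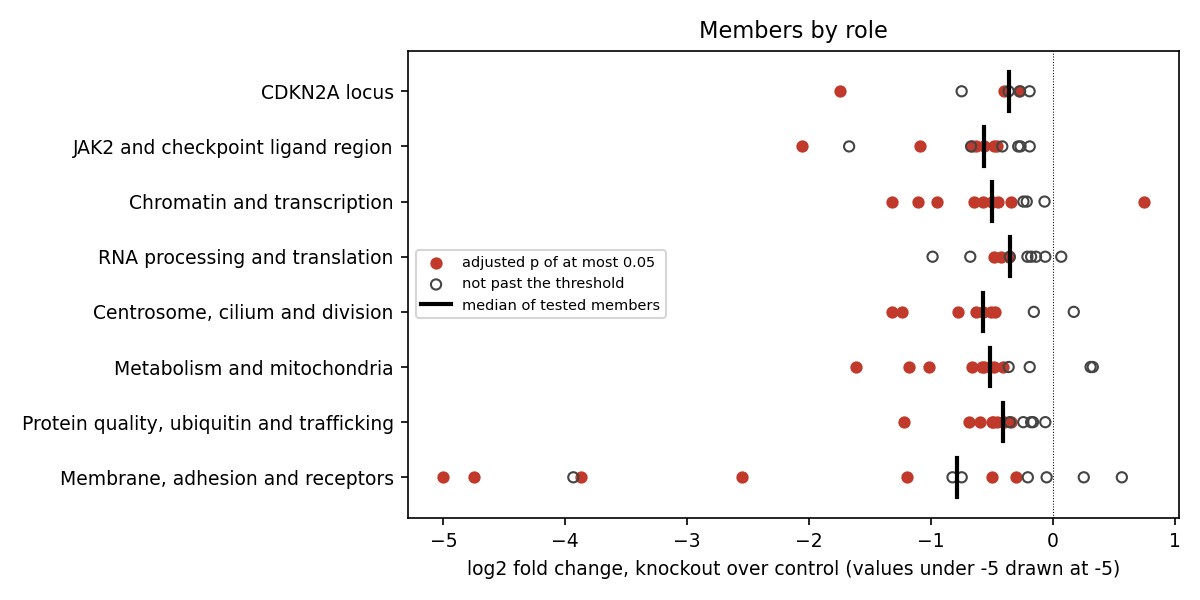
Log2 fold change (knockout over control) of the tested members by the list of their role; filled points passed an adjusted p of 0.05, open points did not, and bars are medians. Medians run from -0.78 for membrane genes to -0.35 for RNA genes, and TUSC1 is the filled point above 0.

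Membrane, adhesion and receptor genes held the strongest falls and the widest spread. PTPRD, a receptor tyrosine phosphatase of neurons that is often lost in tumours, was at 5.72, 5.12 and 7.23 CPM in the controls and 0.104, 0.184 and 0.376 CPM in the knockouts, a log2 fold change of -4.75 (SE 0.44). PTPRD was nearly silent in each knockout. LINGO2, a neuronal leucine-rich repeat protein, had counts of 41, 38 and 101 in the controls and 0, 0 and 0 in the knockouts, at least 21.2-fold lower when the floor of 3 counts per library is taken for the knockouts. ADAMTSL1, a secreted matrix protein, was at 2.02, 1.7 and 2.58 CPM against 0.208, 0.113 and 0.104 CPM. These genes are long, spanning 2299 kb for PTPRD, 1276 kb for LINGO2 and 1004 kb for ADAMTSL1, and their levels were low in the controls.

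AQP3, a channel for water and glycerol, was abundant by contrast, at 68.9, 72.2 and 108 CPM in the controls and 4.79, 18.8 and 19.1 CPM in the knockouts, a log2 fold change of -2.55 (SE 0.47). Knockout 1 had the lowest AQP3 of all libraries. Its relative AQP7 was at 0.915, 0.87 and 1.38 CPM against 0.326, 0.722 and 0.739 CPM, lower in every knockout but not called. LURAP1L was at 43.5% of control, KANK1, which links adhesions to the cell cortex, at 71%, and MPDZ, a scaffold of tight junctions with many PDZ domains, at 81.1%. VLDLR, a lipoprotein receptor, was at 55.1, 58 and 91.4 CPM against 51.2, 33.3 and 37.3 CPM, lower in every knockout but highest by far in control 3, and did not pass. TYRP1, a pigment enzyme of melanocytes, was at 0.159, 0.188 and 0.536 CPM against 0.0521, 0 and 0 CPM, with no count in knockouts 2 and 3, and did not pass. SLC1A1, a transporter of glutamate, was at 3.78, 4.29 and 2.29 CPM against 5.29, 5.79 and 4.28 CPM, with groups that overlap. DOCK8, a guanine exchange factor of blood cells, was at 2.01, 0.17 and 0.505 CPM in the knockouts, the highest of all libraries in knockout 1 and the lowest in knockout 2. The list also holds CBWD1 and FOXD4, telomeric genes with near-identical copies elsewhere, for which no membrane role is given here. Their log2 fold changes were -0.05 and -0.20, and both count in the list's figures. Of 14 tested genes of the list, 7 were called lower and 7 did not pass. The median was -0.78, with LINGO2 at its fitted value or at its bound.

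Genes on no list included further strong falls. PRSS3, a trypsinogen gene, was at 3.08, 3.73 and 5.19 CPM in the controls and 0.847, 0.779 and 0.687 CPM in the knockouts, a log2 fold change of -2.37 (SE 0.27). UBE2R2-AS1 overlaps PRSS3 on the opposite strand and was at 0.438, 0.71 and 0.884 CPM against 0.0782, 0.184 and 0.13 CPM, so reads of these genes cannot be told apart. TMEM215, a membrane protein gene, was at 2.32, 2.61 and 1.54 CPM against 0.521, 0.397 and 0.467 CPM. C9orf92, at 0.252, 0.391 and 0.145 CPM against 0.0391, 0.0142 and 0.013 CPM, was called lower from a sum of 61 counts. KIAA2026, near JAK2, was at 69.5% of control.

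The members with the largest positive fold changes at 1 CPM or more included transcripts that share sequence with other genes. The pseudogenes LDHAP4, at 0.544, 0.391 and 1.48 CPM in the controls and 1.89, 0.326 and 2.03 CPM in the knockouts, and RPL4P5, at 1.27, 1.51 and 1.45 CPM against 1.49, 2.21 and 2.28 CPM, did not pass. ENSG00000260947, a long noncoding RNA among these rises for which no shared sequence was shown, was at 0.796, 0.507 and 1.17 CPM against 1.2, 1.86 and 0.778 CPM. ANXA2P2, an intronless copy of annexin A2, is the third member by FPKM and was not among these rises. It was at 109, 112 and 112 CPM against 145, 109 and 114 CPM. How the authors' counting divided reads between such copies and their parent genes is not given in the sources used here.

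**Figure D5:**
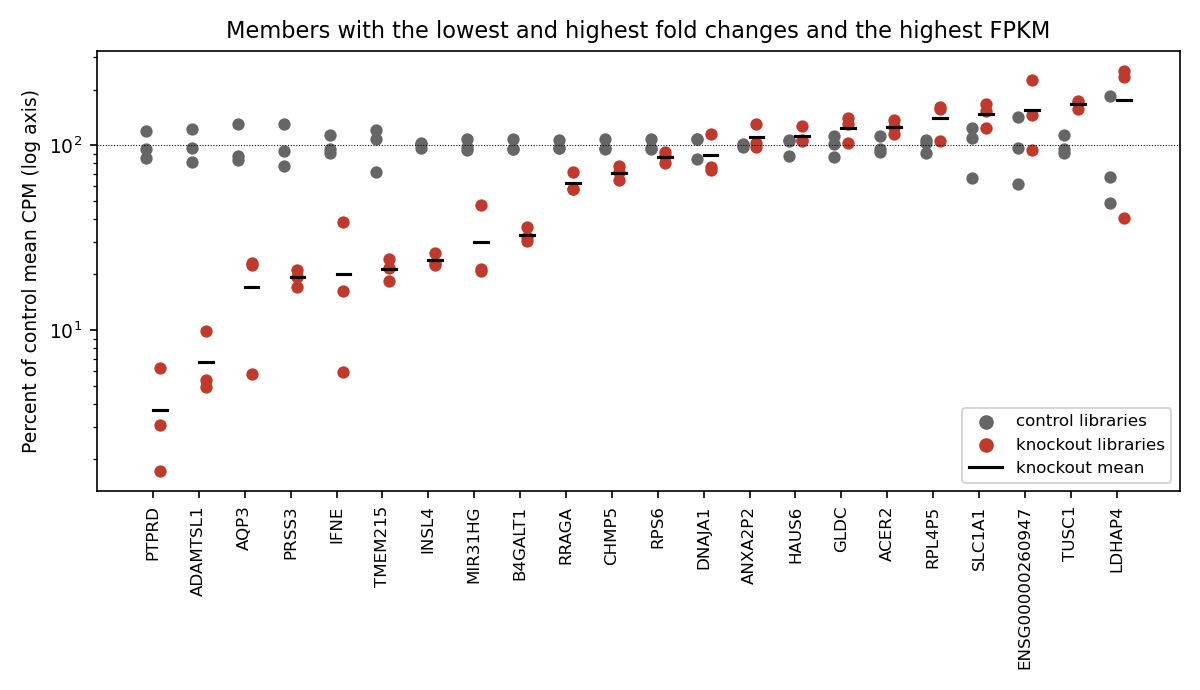
CPM of single libraries as a percentage of the control mean (log axis) for the members with the lowest and highest fold changes and the highest FPKM; grey points are controls, red points knockouts and bars knockout means. Knockout means run from 3.68% for PTPRD to 176% for LDHAP4, and TUSC1, at 168%, is the one called higher.

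In all, 20 called members were at least 2-fold lower: RFX3, SPATA6L, PLPP6, INSL4, PTPRD, LURAP1L, C9orf92, BNC2, ADAMTSL1, HACD4, MIR31HG, IFNE, MOB3B, LINGO2, TMEM215, B4GALT1, BAG1, AQP3, PRSS3 and UBE2R2-AS1. The other 32 called members were less than 2-fold lower. Of the 53 calls, 34, all lower, held when each library in turn was left out. The 19 that did not were CDC37L1, ERMP1, RANBP6, UHRF2, DMAC1, MPDZ, CCDC171, C9orf92, BNC2, MLLT3, FOCAD, HACD4, KLHL9, IFNE, TUSC1, APTX, SMU1, NFX1 and UBE2R2-AS1. They lost the call with fewer libraries in the fit: 16 without control 1, 18 without control 2, 11 without control 3, 13 each without knockout 2 or knockout 3, and 0 without knockout 1.

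Knockout 1 differed from the other knockouts within distal 9p as it did elsewhere. Its log2 level minus the mean of knockouts 2 and 3 had a median of -0.06 over the members (quartiles -0.46 and 0.25), against 0.00 over all genes (quartiles -0.35 and 0.25). In the window from 20 to 30 Mb its median ratio to the controls was -0.82, against -0.32 and -0.38 in knockouts 2 and 3. In the other windows the knockout medians lay between -0.56 and -0.30. Without knockout 1, 59 members were called lower and the median log2 fold change was -0.41.

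The gene whose level followed that of MTAP most closely over the 6 libraries, among 801 tested genes of chromosome 9, was ANKRD18B, an ankyrin repeat gene of distal 9p (Pearson r 0.98). NPR2, ENSG00000234460, LCN12 and ENSG00000286162 followed, with r from 0.95 to 0.92. With 6 libraries in 2 groups, this describes these libraries only.

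Genes elsewhere in the genome that act with members were tested in the same fit. Their values did not choose the region, but the lists were made with earlier results of these data known. A group may also be 1 clone, so the adjusted p-values below are a description. Beside the counts below stand the shares of all tested genes, 11.5% called lower and 8.21% higher; with lists this short, no list was compared with them by a test. Of 18 tested partners of p16INK4a and ARF, 3 fell and 3 rose. CDKN1B, the CDK inhibitor p27, fell from 85.5 ± 4.30 to 51.1 ± 4.39 CPM (SD, n = 3; edgeR adjusted p 0.0012), with every knockout lower. CCND1, cyclin D1, rose from 281 ± 22.0 to 434 ± 50.2 CPM (edgeR adjusted p 0.0061), and its kinase CDK6 from 105 ± 1.99 to 157 ± 22.7 CPM (edgeR adjusted p 0.0083). RBL2, the RB relative p130, fell from 88.5 ± 2.45 to 58.8 ± 9.55 CPM (log2 fold change -0.59, edgeR adjusted p 0.012). RBL2 lies on the long arm of chromosome 16, whose genes had a median of -0.51. E2F1 rose (log2 fold change 0.54, edgeR adjusted p 0.046) and CCND3 fell (-0.24, 0.048).

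The substrate of MTAP is an inhibitor of the methyltransferase PRMT5. Of 13 genes of methionine salvage and the PRMT5 complex, 3 rose and 0 fell. AMD1, which makes the donor for polyamine synthesis, rose from 145 ± 6.31 to 262 ± 24.4 CPM (edgeR adjusted p 6.7e-04), RIOK1 from 16.9 ± 0.317 to 22.3 ± 0.451 CPM (0.016) and WDR77 from 48.5 ± 0.734 to 67.8 ± 13.9 CPM (edgeR adjusted p 0.041). Of 12 tested JAK-STAT genes, 3 fell: STAT5A (log2 fold change -0.80, edgeR adjusted p 0.0095), STAT6 (-0.65, 0.036) and JAK1 (-0.28, 0.039). SOCS3, the feedback inhibitor of JAK signalling, rose (log2 fold change 0.56, edgeR adjusted p 0.015). SOCS3 lies in the stretch of chromosome 17 from 60 Mb, whose genes had a median of 0.39. Of 10 genes of the RIG-I pathway, 1 fell and 1 rose, close to the shares of all genes: the sensor IFIH1 fell (-0.88, edgeR adjusted p 0.023) and the adaptor TRAF3 rose (0.50, 0.0083). In all 15 calls every knockout lay on 1 side of every control. The calls rest on these same values, so this adds no support to them. Among all tested genes, 21.5% had every knockout lower than every control and 19.7% every knockout higher. The number of partner calls was 8 without control 1 or control 2, 9 without knockout 2 or knockout 3, 10 without control 3 and 21 without knockout 1. Partner genes were thus called in both directions, and their link to the members' levels was not tested.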

How the data were processed

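Total RNA of 6 NCI-H1299 libraries was sequenced. Trimming was done with Cutadapt, alignment to GRCh38 with HISAT2 (2.0.4) and gene quantification with StringTie (1.3.4d), per the labels' protocols and, for versions and build, the submitters' processing notes, which also list edgeR. The sources used here state neither the annotation release nor the strand setting. For each gene, the deposited table holds a raw read count and an FPKM value per library, the latter scaled by the authors for gene length and depth.

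Counts were filtered (filterByExpr, minimum count 10 and minimum total 15), scaled by TMM and fitted in edgeR 4.0.16 (R 4.3.3; quasi-likelihood test) over all 20134 genes that passed, with genotype as the only term, Benjamini-Hochberg adjustment and a threshold of 0.05. SE are those of the log2 fold change. Ratios per library use log2 CPM with a prior count of 2. The fits were tested on simulated data. Total counts per library set the precision given in the report.

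The members and gene lists were chosen with earlier results of these data known. Genes were named by a rule: list members, the 8 lowest and 8 highest fold changes at 1 CPM or more, the 6 highest FPKM, the genes at the limits, called partners (up to 4 per list, CCND3 and E2F1 added after their values were seen), and the chromosome 9 genes most correlated with MTAP. Others were named because their groups do not overlap or their call is discussed. The values of a few members are not reported here. Sequences are from RefSeq (GRCh38.p14).

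Alternatives were other filters, size factors of the DESeq2 type, limma-voom after quantile normalization (limma 3.58.1), DESeq2 1.42.0, the replicate number as a block, limma on log2 of FPKM plus 1 or 0.1 where the mean FPKM reached 1, narrower member limits and leaving out each library. Restricting the members to those with a coding transcript was added after the data were seen.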

Additional observations from a re-analysis of the deposited data

How the results depend on the processing

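No member that was called changed direction under any alternative run. Calls lower numbered 35 to 59 over all alternatives (35 to 59 with 1 library left out, 57 with DESeq2, 37 on FPKM), and the median log2 fold change of members ran from -0.49 to -0.31 (-0.47 to -0.41 with 1 library left out). The value of -0.31 came from limma on log2 FPKM plus 1, over the 71 members with a mean of at least 1 FPKM; with plus 0.1 it was -0.38, and the cause was not tested. Members called higher were 2 on FPKM with either pseudocount, SCARNA8 and TUSC1, and 0 to 2 with 1 library left out. The median of the CDKN2A locus ran from -0.44 to -0.24. Calls among partner genes ran from 8 to 21 with 1 library left out. Quantile normalization gave 6 members, none of them called, the opposite sign and moved the median of all tested genes to 0.06. Leaving out 1 library gave 4 to 10 members the opposite sign, most of them without knockout 1. None of these was called.

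Samples that share a replicate number were not shown to be paired: the correlations of their deviations were -0.005, -0.072 and -0.058. With the replicate number as a block, 46 members were called lower and 1 higher, the median was -0.43, that of the CDKN2A locus was -0.31, and 12 partner genes were called. Low counts limit CDKN2A, CDKN2B and most interferon genes in every library, and CDKN2A is limited by the spread between controls as well.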
